A study of Mus musculus with 9 samples.

Results

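Nr4a1, Nr4a2 and Nr4a3 make up the Nr4a group of orphan nuclear receptors, and their transcripts were followed in the mouse line 3T3-L1, whose fibroblast-like cells become adipocytes when given a hormone mixture. The members were taken by gene symbol. Each of the 3 genes was measured by 1 probe set on the array, and they are 3 of 22180 genes with a probe set of their own and 3 of 12630 genes tested. The cells were confluent pre-adipocytes kept growth-arrested for 48 h, and 3 groups of 3 samples were compared, each sample on 1 single-colour array. The first group received vehicle. The second had been transfected with 100 nmol of a scrambled control siRNA and was then given 0.5 mM IBMX and 1 µM dexamethasone (Dex) for 6 h. The third had been transfected with 100 nmol of an siRNA against CD24, a small surface glycoprotein encoded by Cd24a, and was given the same IBMX and Dex for the same time. IBMX blocks phosphodiesterases and so raises cAMP, and Dex is a synthetic glucocorticoid. IBMX and Dex were always given together, so their effects cannot be told apart here. Whether cells given vehicle had also been transfected is not stated in the labels, so transfection and IBMX/Dex cannot be told apart in the comparisons with vehicle. Nor do they say that samples of a group were separate cultures, and the p-values then measure only the spread between these samples, which may be technical.

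Nr4a receptors bind DNA as transcription factors but have no known hormone in the usual sense, because bulky side chains fill the pocket in which other nuclear receptors hold their ligand. Their activity is therefore set largely by how much of the protein is made. The genes are immediate early genes: in many cell types a rise in cAMP activates protein kinase A, which phosphorylates the transcription factor CREB at the cAMP response elements (CREs) of their promoters. The proteins bind the NBRE, an octamer, as monomers, and Nr4a1 and Nr4a2 also pair with the retinoid X receptor. In 3T3-L1 cells they are known as early genes of the response to the adipogenic mixture, of which IBMX and Dex are parts.

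The stretches before the annotated starts of the 3 genes are shown because CRE half-sites lie in each of them. They are RefSeq sequences of the GRCm38.p6 build, 250 bases long, 5′ to 3′ on the gene's own strand and ending just before the start of 1 annotated transcript. Nr4a1 is on the plus strand at chr15:101266596-101266845, Nr4a2 on the minus strand at chr2:57124004-57124253 and Nr4a3 on the plus strand at chr4:48045055-48045304. Capitals mark the half-site TGACG or, on the other strand, CGTCA.
Nr4a1: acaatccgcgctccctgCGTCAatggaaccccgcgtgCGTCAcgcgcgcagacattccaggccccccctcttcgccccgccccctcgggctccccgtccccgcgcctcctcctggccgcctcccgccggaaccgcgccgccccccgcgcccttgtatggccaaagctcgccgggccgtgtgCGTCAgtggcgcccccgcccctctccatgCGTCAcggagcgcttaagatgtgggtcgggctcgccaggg
Nr4a2: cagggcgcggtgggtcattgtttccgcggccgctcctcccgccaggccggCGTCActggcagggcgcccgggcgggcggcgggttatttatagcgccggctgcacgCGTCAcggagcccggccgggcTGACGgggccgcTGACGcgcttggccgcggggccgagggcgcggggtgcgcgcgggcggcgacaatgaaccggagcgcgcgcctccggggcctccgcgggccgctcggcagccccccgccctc
Nr4a3: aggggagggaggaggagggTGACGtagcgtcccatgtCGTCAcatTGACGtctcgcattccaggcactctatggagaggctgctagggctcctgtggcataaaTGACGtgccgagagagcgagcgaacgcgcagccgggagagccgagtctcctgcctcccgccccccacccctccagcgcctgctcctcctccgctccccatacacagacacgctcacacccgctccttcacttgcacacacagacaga
Each window held 4 half-sites. In Nr4a1 they began 233, 213, 69 and 40 bases before the start, all on the other strand. Those of Nr4a2 began 200 and 144 bases before the start on the other strand and 123 and 111 bases before it on the gene's strand. In Nr4a3 they began 231, 205 and 147 bases before the start on the gene's strand and 213 bases before it on the other. Of 32851 promoter windows of the same length in the RefSeq table, 17.8% held at least 1 half-site and 0.137% (45 windows) held at least 4. The 3 windows were also rich in G and C (74.4% in Nr4a1, 80.0% in Nr4a2 and 63.6% in Nr4a3, against a median of 52.4%), and the half-site itself contains CG, so the share over all windows is not that of windows of like composition. The full palindrome TGACGTCA, which 1.55% of windows held, was in none of the 3. Nor was the NBRE (AAAGGTCA, in 1.34% of windows), the AP-1 site (TGANTCA, 6.75%), the CArG box to which serum response factor binds (1.47%) or the palindromic glucocorticoid response element (0.00913%). That element was searched only by its full palindrome, which 3 of the 32851 windows held, so its absence here is uninformative. All motifs were searched on both strands. The full palindrome would count as 2 half-sites, and 1 TATAAA was found in Nr4a2 on the other strand, 164 bases before the start (12.4% of windows hold one). Such matches describe the letters only, and binding was not measured.

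**Figure D1:**
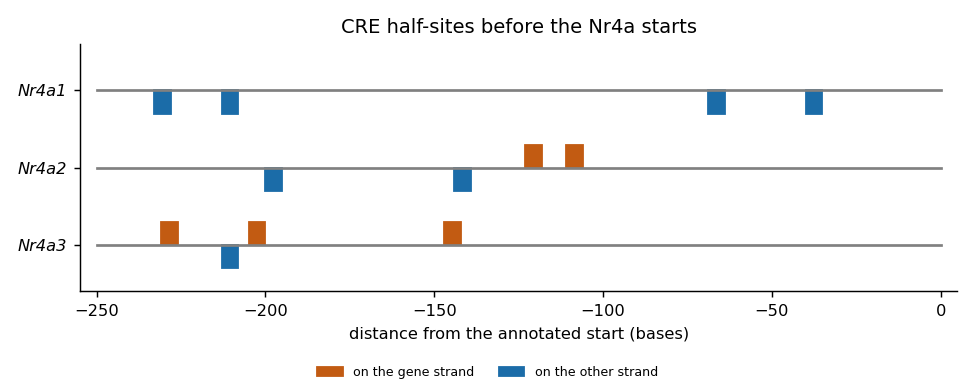
Positions of CRE half-sites in the 250 bases before the annotated start of each Nr4a gene; the x axis is the distance from the start in bases, blocks above a line are on the gene's strand and blocks below it on the other strand. Each gene has 4 half-sites, and only in Nr4a1 do any lie within 100 bases of the start, at 69 and 40 bases.

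The 9 arrays had medians between 6.47 and 6.56 on the log2 scale. Of 10 pre-adipocyte markers with a probe set 9 were above the filter level of 6.51 (the median of all values, which the third highest of a gene's 9 values had to reach), the brightest being Dlk1 (mean 12.27), while Zfp423 stayed below it. Pdgfrb and Pdgfra, which encode receptors for platelet-derived growth factor, fell with IBMX/Dex after scrambled siRNA (log2 difference -1.66 and -1.04), although Pdgfra did not pass without scrambled replicate 1 or 3 or vehicle replicate 2 or 3. With the replicate number as a block, 5 of the 9 tested markers fell after scrambled siRNA and 4 after CD24 siRNA. In such bulk samples fewer cells of a type and less RNA per cell cannot be told apart. Of 9 mature adipocyte markers 4 were tested and 0 passed: the lipase gene Lpl and the fatty acid carrier gene Fabp4 had means of 11.06 and 9.52 in vehicle, and Retn (6.56) and Pck1 (6.5) lay near the filter level. The other 5 were below it, among them the hormone gene Adipoq at 5.64 and the lipid droplet gene Plin1 at 6.31. Of 8 macrophage markers 4 were tested, the brightest being Cd14 (mean 8.61). In limma 0 of these 4 passed, while with the replicate block 1 rose and 1 fell after scrambled siRNA. The other 4 were below the filter level, the leukocyte gene Ptprc among them at 4.71 in vehicle. The mean level of those 8 markers ranged over the arrays from 6.55 to 6.81 with vehicle, 6.58 to 6.93 with scrambled siRNA and 6.70 to 6.90 with CD24 siRNA; its part in the results was not tested. Cd24a, the target of the siRNA, was lower by 1.04 and 1.57 log2 units in replicates 1 and 2 of the CD24 siRNA arrays than on the scrambled arrays of those numbers, but the third array differed by only -0.10 (second probe set: -2.05, -2.03 and -0.18). The array labelled CD24 siRNA replicate 3 thus had its target near the scrambled level, and the results of the Nr4a genes with CD24 siRNA are given with and without it.

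Nr4a1 (also Nur77, probe set 17315178) was measured at 8.60, 7.80 and 9.27 on the vehicle arrays of replicates 1, 2 and 3, in log2 units. On the scrambled arrays with IBMX/Dex it was at 12.00, 11.41 and 12.09, and on the CD24 siRNA arrays with IBMX/Dex at 11.49, 11.25 and 11.97. All 6 treated arrays lay above all 3 vehicle arrays, the nearest 1.98 log2 units higher. Within each group replicate 2 was the lowest and replicate 3 the highest. The vehicle arrays spread widest: the SD was 0.74 there, 0.37 with scrambled siRNA and 0.36 with CD24 siRNA (n = 3 each). Nr4a1 rose 9.71-fold with IBMX/Dex after scrambled siRNA (log2 difference 3.28 ± 0.35 SE, 95% interval 2.48 to 4.08, limma adjusted p = 0.00143). The same-numbered differences were 3.41, 3.61 and 2.82, that is 10.6-fold, 12.2-fold and 7.05-fold. The difference was thus smallest in replicate 3, whose vehicle array had the most Nr4a1, a value that the difference subtracts. After CD24 siRNA Nr4a1 rose 8.08-fold over the same vehicle arrays (log2 difference 3.01 ± 0.35 SE, adjusted p = 0.00228; same-numbered differences 2.89, 3.45 and 2.70), and 7.05-fold without the array labelled CD24 siRNA replicate 3 (adjusted p = 0.0152).

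Nr4a2 (also Nurr1, probe set 17385374), known best for its part in making dopamine neurons, stood at 8.01, 8.32 and 8.31 with vehicle. Scrambled siRNA with IBMX/Dex gave 9.41, 9.45 and 10.22, and CD24 siRNA with IBMX/Dex gave 9.42, 9.68 and 9.98. Again no treated array overlapped the vehicle arrays, with a gap of 1.08 log2 units, and replicate 3 was the highest of both treated groups. The group SDs were 0.18 with vehicle, 0.46 with scrambled siRNA and 0.28 with CD24 siRNA. Nr4a2 rose 2.79-fold in both comparisons with vehicle, by 1.48 ± 0.23 SE log2 units each (95% interval 0.96 to 2.00; limma adjusted p = 0.00756 after scrambled and 0.00814 after CD24 siRNA). Its same-numbered differences were 1.40, 1.13 and 1.91 after scrambled siRNA and 1.41, 1.36 and 1.67 after CD24 siRNA, so that its rise was largest in replicate 3, where that of Nr4a1 was smallest. The rise after CD24 siRNA was 2.53-fold (adjusted p = 0.0383) without the array labelled CD24 siRNA replicate 3.

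Nr4a3 (also Nor1, probe set 17413945) had values of 5.68, 5.28 and 5.34 with vehicle, 8.99, 8.30 and 9.0 with scrambled siRNA and IBMX/Dex, and 8.26, 8.24 and 8.69 with CD24 siRNA and IBMX/Dex. The 3 vehicle values were below the filter level of 6.51 and the 6 treated values above it, with a gap of 2.56 log2 units between vehicle and the nearest treated array. Nr4a3 therefore entered the test only through the treated arrays, and a gene that does so is bound to differ; with no filter its adjusted p in limma was 0.00017. Its measured rise was 10.1-fold after scrambled siRNA (log2 difference 3.33 ± 0.22 SE, 95% interval 2.84 to 3.82, adjusted p = 0.000102). The same-numbered differences were 3.31, 3.02 and 3.66, and replicate 3 went up most. After CD24 siRNA the measured rise was 7.80-fold (log2 difference 2.96 ± 0.22 SE, adjusted p = 0.000245; same-numbered differences 2.58, 2.96 and 3.35), and 7.04-fold without the array labelled CD24 siRNA replicate 3 (adjusted p = 0.00248). The sizes of these rises rest on vehicle values of a dim probe set. With the vehicle values raised to the filter level, a bound chosen after seeing the data, Nr4a3 was at least 4.76-fold higher after scrambled siRNA and at least 3.69-fold higher after CD24 siRNA.

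**Figure D2:**
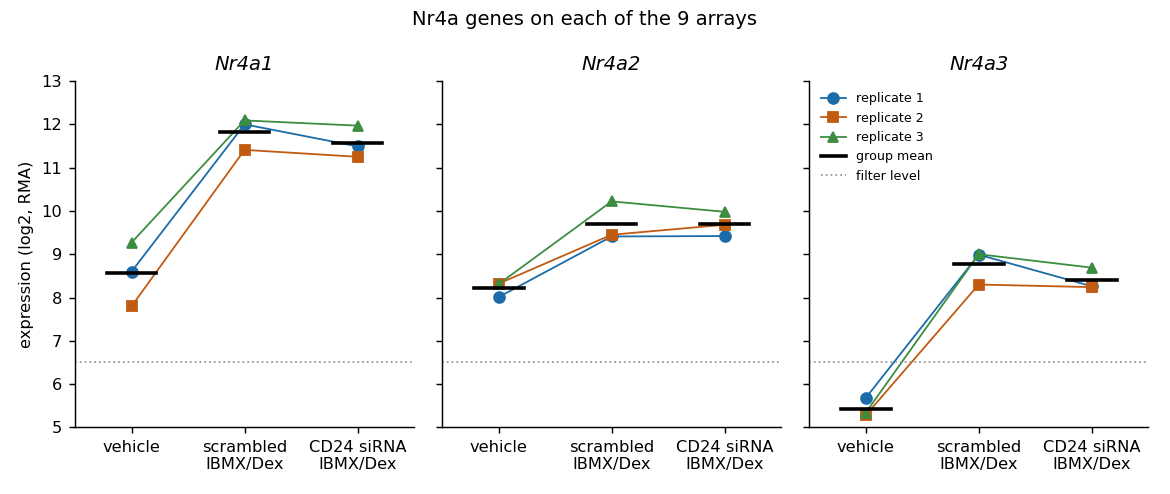
Expression of Nr4a1, Nr4a2 and Nr4a3 (log2, RMA) on each of the 9 arrays; lines join arrays of the same replicate number, black bars are group means and the dotted line is the filter level of 6.51. All 6 treated arrays lie above the 3 vehicle arrays for each gene, and only the vehicle values of Nr4a3 (5.28 to 5.68) lie below the filter level.

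All 3 genes were thus higher after scrambled siRNA with IBMX/Dex, beside 3.33% of all genes tested that were called higher in that comparison, 3.6% that were called lower and 6.94% called in all. In the comparison of CD24 siRNA with the same vehicle arrays those shares were 2.92%, 3.73% and 6.65%. With the replicate number as a block, under which the 3 genes passed too, 11.9% of genes were called higher and 11.4% lower after scrambled siRNA (23.3% in all), and 10.4% and 12.1% after CD24 siRNA (22.4% in all). All 3 also had treated arrays wholly above vehicle, as 12.8% of genes tested had after scrambled siRNA and 12.1% after CD24 siRNA (wholly below: 12.4% and 13.7%). By log2 difference from vehicle after scrambled siRNA, Nr4a1 came 5th and Nr4a2 69th of 12630 genes. After CD24 siRNA they came 5th and 57th, and 6th and 72nd without the array labelled CD24 siRNA replicate 3. Nr4a3 came 4th and 7th by its measured values but 16th and 24th by its bounds, so its order relative to Nr4a1 is not determined.

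The size of the rise was then compared between the members within each array, which does not set the level of one probe set against another. The comparison still assumes that the probe sets respond alike to a change in transcript, which was not tested. After scrambled siRNA the measured rise of Nr4a3 was 1.85 log2 units larger than that of Nr4a2, with 1.91, 1.89 and 1.75 in the 3 replicates. With the vehicle values of Nr4a3 raised to the filter level it was larger by at least 0.77 (1.08, 0.66 and 0.58; exact permutation p = 0.10). Nr4a1 rose by 1.8 log2 units more than Nr4a2, with 2.00, 2.48 and 0.91 in the 3 replicates. After CD24 siRNA the corresponding differences were 1.48 (1.17, 1.60 and 1.68; at least 0.40 by the bound) and 1.53 (1.48, 2.10 and 1.03), and both were 1.48 without the array labelled CD24 siRNA replicate 3. Each of these 4 measured differences was positive in 3 of 3 replicates. With the arrays taken as unpaired, each had an exact permutation p of 0.10, two-sided. That is the smallest that 3 arrays against 3 can give (0.15 with Benjamini-Hochberg adjustment over the 6 comparisons made). The exact permutation test that flips the signs of the same-numbered differences gave an exact permutation p of 0.25 for each of the 4. That is the smallest value this paired test can give with 3 replicates. The other exact permutation p-values given here are unpaired too. The measured rises of Nr4a3 and Nr4a1 differed by 0.05 log2 units after scrambled siRNA (replicates -0.09, -0.59 and 0.84; exact permutation p = 1) and by -0.05 after CD24 siRNA (replicates -0.31, -0.49 and 0.65; exact permutation p = 0.9; 0.00 when the array labelled CD24 siRNA replicate 3 was left out). The spread between replicates, with SDs of 0.73 and 0.61, was many times those differences.

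Whether CD24 siRNA altered the Nr4a response was the next question. Nr4a3 was lower with CD24 siRNA than with scrambled siRNA in 3 of 3 replicates, by 0.73, 0.06 and 0.31 log2 units in replicates 1, 2 and 3. Its group difference was -0.37 ± 0.22 SE (95% interval -0.86 to 0.12) and did not pass in limma (adjusted p = 1, unadjusted p = 0.125). Blocking on the replicate number gave an interval of -0.72 to -0.02 (adjusted p = 1, unadjusted p = 0.042). Nr4a1 was lower by 0.51, 0.16 and 0.12, a group difference of -0.26 ± 0.35 SE (95% interval -1.06 to 0.54, adjusted p = 1). Nr4a2 differed by 0.01, 0.23 and -0.24, with a mean of 0.00 ± 0.23 SE (95% interval -0.52 to 0.52, adjusted p = 1). For each gene the CD24 siRNA and scrambled arrays overlapped, whereas 0.879% of genes tested lay wholly higher with CD24 siRNA and 1.54% wholly lower. In Nr4a1 and Nr4a3 the largest of the same-numbered differences was that of replicate 1. Replicate 2, with the largest drop of Cd24a on its brighter probe set (-1.57), had one of 0.16 log2 units in Nr4a1 and 0.06 in Nr4a3. On the second probe set of Cd24a the drops in replicates 1 and 2 were alike (-2.05 and -2.03). Whether the drops of Cd24a and of the Nr4a genes go together was not tested. When the array labelled CD24 siRNA replicate 3 was left out, the group differences were -0.52 ± 0.23 SE for Nr4a3, -0.46 ± 0.39 SE for Nr4a1 and -0.14 ± 0.25 SE for Nr4a2 (adjusted p = 1 each). The 95% intervals without that array reached down to -1.05 for Nr4a3 and -1.37 for Nr4a1, and those over all arrays to 0.552 and 0.478 times the scrambled level, so they do not show that the siRNAs acted alike. In this comparison 0% of the 12630 genes tested passed in limma, with or without the block, while 30 genes had an unadjusted p under 0.05 (219 with the block). Both counts are below the share of 0.05 that well-calibrated p-values would give if no gene differed. The p-values of this comparison may thus be too high, and they do not show that no gene differed. The cause was not tested.

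**Figure D3:**
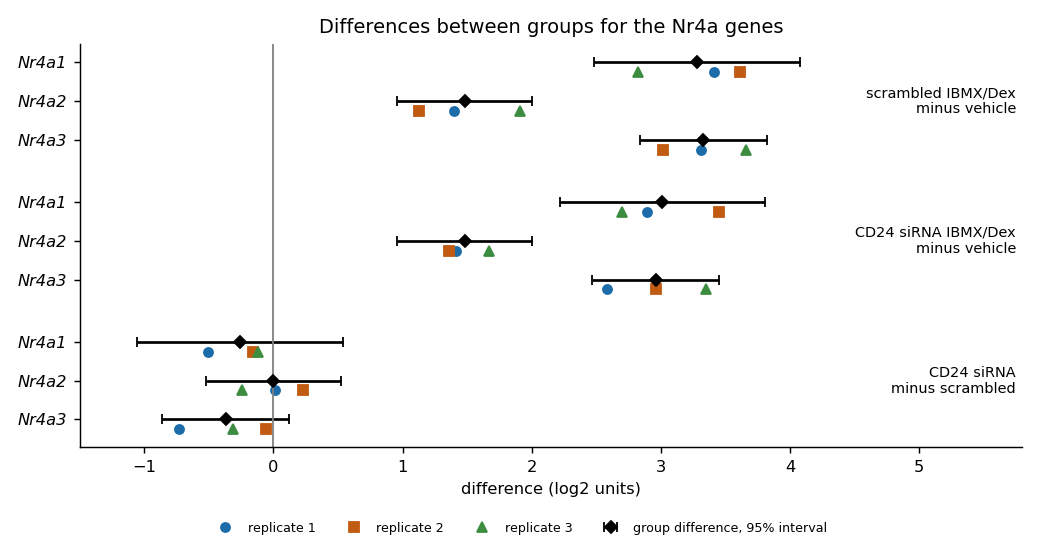
Differences in log2 units for the 3 Nr4a genes in each comparison; diamonds and bars are the group difference with its 95% interval from limma, coloured points are the same-numbered differences of replicates 1 to 3. Differences from vehicle lie between 1.13 and 3.66 in every replicate, whereas the 3 intervals of CD24 siRNA minus scrambled siRNA include 0.

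The rest of the nuclear receptor superfamily was set beside the Nr4a genes. Of 46 other receptor genes listed, 42 had a probe set and 24 were tested, and of these 1 rose and 3 fell after scrambled siRNA with IBMX/Dex (median log2 difference -0.04, against 0.02 over all genes tested). With the replicate block 2 rose and 4 fell. Among the 27 receptors tested, Nr4a3 and Nr4a1 ranked highest, in an order that is not determined, and Nr4a2 ranked 4th. Between them came Vdr, the vitamin D receptor, which rose 3.27-fold from 11.00 ± 0.42 to 12.70 ± 0.08 (SD, n = 3; limma adjusted p = 0.00143). The gene of the glucocorticoid receptor through which Dex acts, Nr3c1, ranked last and fell 2.27-fold (adjusted p = 0.00135). The clock repressor gene Nr1d1 fell 1.69-fold (adjusted p = 0.00499) and the thyroid hormone receptor gene Thra 1.63-fold (adjusted p = 0.00908). Nr1d2, a close relative of Nr1d1, had a difference of -0.86 that passed only with the replicate block (adjusted p = 0.0947, 0.00293 with the block), as did Nr2f1 (0.56; adjusted p = 0.157, 0.00416 with the block), named after its value was seen. The same 4 receptors, Vdr, Nr3c1, Nr1d1 and Thra, passed after CD24 siRNA, measured against the same vehicle arrays, by 3.32-fold, 2.61-fold, 1.57-fold and 1.71-fold in the same directions. Leaving out the array labelled CD24 siRNA replicate 3 gave 3.27-fold, 2.57-fold, 1.60-fold and 1.74-fold (highest adjusted p 0.0345, for Nr1d1). With the block 3 rose and 4 fell after CD24 siRNA.

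**Figure D4:**
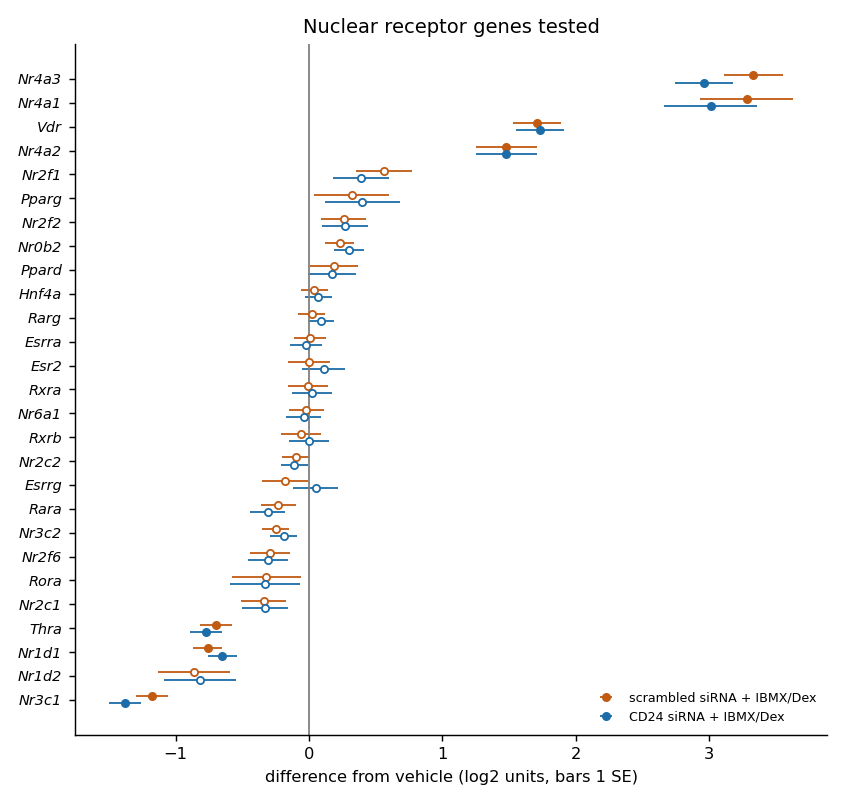
Log2 difference from vehicle of the 27 nuclear receptor genes tested, ordered by the scrambled siRNA comparison, with bars of 1 SE; filled points have a limma adjusted p under 0.05. Nr4a3 and Nr4a1, at about 3 log2 units, stand above Vdr (1.71) and Nr4a2 (1.48), and the other receptors lie between 0.56 and -1.18.

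The lists of the pathway around the receptors were described next. Their genes were taken from textbook knowledge with earlier results of these data known, so the counts are descriptions and not tests. Among 17 tested genes of the other cAMP and CREB targets 10 rose and 0 fell after scrambled siRNA (median log2 difference 0.76), with 3.33% of all genes called higher. The G protein regulator gene Rgs2 rose 10.8-fold, the transcription factor gene Nfil3 3.31-fold, the clock gene Per1 2.89-fold, the kinase gene Sik1 2.22-fold and the cAMP phosphodiesterase gene Pde4b 2.02-fold. Dex was given with IBMX on every treated array, so whether cAMP or the glucocorticoid raised these genes was not tested. The count was 8 without scrambled replicate 3. With the replicate block 12 rose and 1 fell after scrambled siRNA, and 11 rose and 1 fell after CD24 siRNA. After CD24 siRNA 9 of the 17 rose and 0 fell, and 7 rose without the array labelled CD24 siRNA replicate 3. Nr4a2, at 2.79-fold, was within the range of these genes, while of the 17 only Rgs2 had a larger log2 difference than Nr4a1.

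Of 24 tested immediate early genes, to which class the Nr4a genes also belong, 4 rose and 1 fell (median 0.14), where 3.33% of all genes were called higher and 3.6% lower. Treated cells were sampled only at 6 h, so earlier changes of these genes were not measured. The phosphatase gene Dusp1 rose 4.89-fold, Ier3 2.89-fold, Zfp36, whose product destabilises messenger RNAs, 2.40-fold, and the AP-1 subunit gene Fosl2 1.85-fold, while the zinc finger gene Klf6 fell 2.18-fold. Without scrambled replicate 3 the count was 2 higher and 1 lower, since Ier3 and Fosl2 no longer passed, and with the replicate block it was 8 higher and 2 lower, where 11.9% and 11.4% of all genes were called. Fos and Egr1, named here after their values were seen as the classic genes of this kind, had log2 differences of 0.57 (adjusted p = 0.137, 0.0176 with the replicate block) and -0.90 (adjusted p = 0.0652, 0.00439 with the replicate block). After CD24 siRNA 4 rose and 2 fell, Egr1 being the second that fell (2.15-fold, adjusted p = 0.0337), though it did not pass on leaving out any 1 of the vehicle arrays or CD24 siRNA replicate 2 or 3. With the array labelled CD24 siRNA replicate 3 left out, the count was 1 higher and 1 lower.

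Among 21 tested CREB pathway regulators 3 rose and 0 fell (median 0.04; 4 and 3 with the replicate block). The kinase gene Sik2, whose product holds the CREB coactivators in the cytoplasm, rose 2.56-fold. Nfatc1 and Nfatc4, genes of calcium-responsive transcription factors, rose 1.97-fold and 1.71-fold. Sik2 alone passed without scrambled replicate 1 or 3, and Nfatc4 passed in 1 of 9 fits that left out an array. Pkia, an inhibitor of protein kinase A, and the calcineurin gene Ppp3ca had differences of -0.47 and 0.39 that passed only with the replicate block (adjusted p = 0.0113 and 0.0441). Creb1, named after its value was seen, had a difference of 0.04. After CD24 siRNA 2 of the 21 rose, and 1 without CD24 siRNA replicate 1.

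Of 22 tested Nr4a partners and coregulators 0 rose and 2 fell (median -0.07), namely the NF-kB subunit gene Rela (1.47-fold) and the nuclear receptor coactivator gene Ncoa2 (1.39-fold). Neither passed on leaving out scrambled replicate 1, 2 or 3 or vehicle replicate 3. With the replicate block 1 rose and 4 fell. Bcl2, whose product Nr4a1 can bind at mitochondria, the corepressor gene Trim28 and the hypoxia factor gene Hif1a did not pass, at -0.68, 0.31 and 0.57, though Bcl2 and Hif1a did with the replicate block (adjusted p = 0.00649 and 0.0191). The retinoid X receptor genes Rxra and Rxrb, named after their values were seen, had differences of -0.01 and -0.06, and Rxrg was below the filter level. After CD24 siRNA Rela and Ncoa2 were again the 2 genes that fell, with 0 higher, and 0 passed on leaving out any 1 CD24 siRNA array, scrambled replicate 3 or vehicle replicate 3.

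Genes reported elsewhere as Nr4a targets, mostly in muscle, liver, neurons and endocrine cells, gave no call: 9 of 23 with a probe set were below the filter level, and of the 14 tested 0 rose and 0 fell in limma (median -0.02), with 4 at an unadjusted p under 0.05. With the replicate block 2 fell, and without vehicle replicate 2 so did 1. Those with the smallest p were the muscle enolase gene Eno3 (-0.46, adjusted p = 0.0632, 0.0126 with the replicate block), the lipid regulator gene Srebf1 (-0.40), the phosphatidate phosphatase gene Lpin1 (0.32), Cited2 (-0.48), which encodes a cofactor of CBP and p300, and the cell death gene Bcl2l11 (0.33). After CD24 siRNA the counts were 0 and 0 as well, with 2 at an unadjusted p under 0.05, and 1 fell without vehicle replicate 2.

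Adipogenic regulators went both ways: of 24 tested 2 rose and 4 fell (median -0.08; 4 and 8 with the replicate block). The factor gene Klf5 rose 2.23-fold. Nr3c1 fell, as given above, as did Stat5b (2.20-fold) and Stat5a (1.94-fold), which relay growth hormone signals, and Klf3 (1.47-fold). Stat5b and Klf3 each did not pass in 4 of 9 fits that left out an array, while Nr3c1 and Stat5a passed in all of them. The other gene that rose was Id2 (8.30-fold), whose vehicle arrays varied by an SD of 1.81 and which passed in 2 of 9 fits that left out an array. Without scrambled replicate 3 the count was 1 higher and 2 lower. After CD24 siRNA 2 rose and 4 fell, and 1 rose and 3 fell without any 1 of the CD24 siRNA arrays. In CD24 siRNA against scrambled siRNA 0 genes of each of the 7 lists passed in limma, and 0 had an unadjusted p under 0.05.

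**Figure D5:**
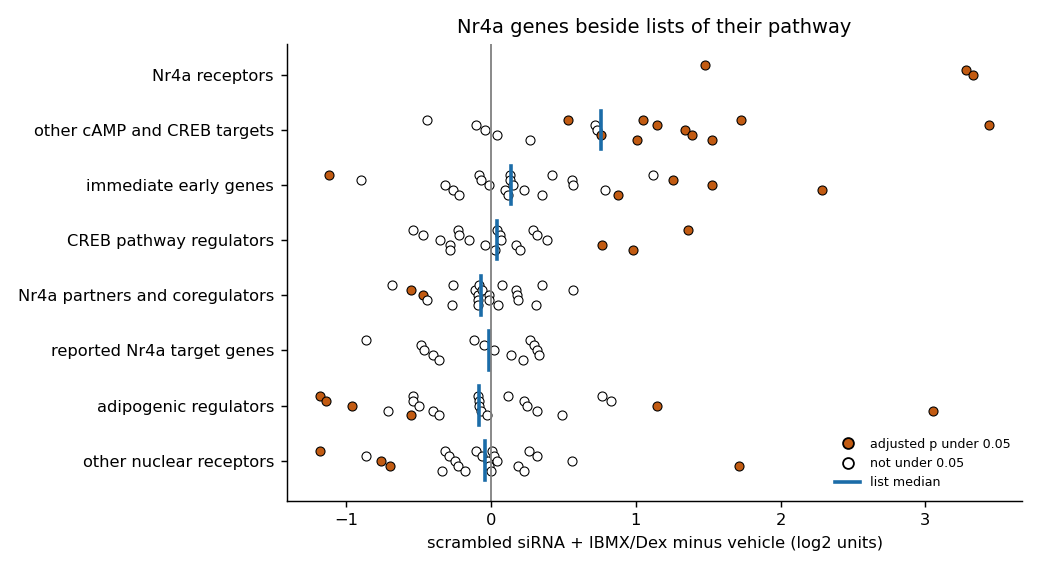
Log2 difference of scrambled siRNA with IBMX/Dex from vehicle for the Nr4a genes and for each tested gene of 7 lists; filled points have a limma adjusted p under 0.05 and blue bars are list medians. The cAMP and CREB targets have the highest median (0.76), and Rgs2 at 3.44 is the point nearest to Nr4a1 and Nr4a3.

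The genes whose profiles came closest to those of the Nr4a genes were found over the 9 arrays by the root mean square difference between profiles, each taken relative to its own mean, in log2 units. This measure includes the size of the rise, so genes that rose by like amounts come out near each other. Likeness is thus no evidence separate from the rises given above, and for Nr4a3 it includes vehicle values below the filter level. For Nr4a1 the nearest genes were Rgs2 (0.31), Nr4a3 (0.35), Uap1 (0.39), Gfpt2 (0.42) and the cytokine gene Il11 (0.48). For Nr4a3 they were Uap1 (0.25), Rgs2 (0.26), the protease gene Tll1 (0.26), Nr4a1 (0.35) and Gfpt2 (0.45). Gfpt2 and Uap1 encode enzymes of the first and last steps in making UDP-N-acetylglucosamine, and they rose 5.59-fold and 7.18-fold after scrambled siRNA. The list for Nr4a2 shared no gene with these, and it lay 0.90 from Nr4a1 and 0.85 from Nr4a3. Its nearest genes were Clmp (0.18), a cell adhesion gene that rose 3.10-fold, the arachidonate-activating enzyme gene Acsl4 (0.20), the ubiquitin ligase gene Rnf125 (0.20), Medag (0.23) and the vitamin C transporter gene Slc23a2 (0.23). They rose between 2.61-fold and 3.22-fold. All these genes had differences between CD24 and scrambled siRNA of at most 0.24 log2 units in size, apart from Nr4a1 and Nr4a3 themselves. Of those with a window in the promoter table, Rgs2 held 2 CRE half-sites, Uap1 and Acsl4 1 each, and Tll1 and Gfpt2 0. Slc23a2 held 2 in 1 of its 2 windows, and Il11 and Medag 0 in both of theirs.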

How the data were processed

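Expression was measured in 9 samples, 3 in each group, grouped and numbered as in the titles. The authors deposited log2 values for 41345 probe sets, made with RMA in the oligo package per the submitters' processing notes; versions are not given, nor whether only these arrays were normalized together. RMA makes array distributions nearly equal and compresses differences of dim probe sets. Values were used as deposited. Of the probe sets 23521 had 1 gene symbol in the platform table, 1814 had several and 16010 had none in that table and stay unnamed. The probe set with the highest mean represented a gene, and 12630 of 22180 genes with at least 3 values of 6.51 or more were tested with limma 3.58.1 (R 4.3.3; lmFit, eBayes, all 9 arrays, 1 mean per group), two-sided, with Benjamini-Hochberg adjustment and a threshold of 0.05. The fit was checked on simulated data. The members, the gene lists and the tests were chosen with earlier results of these data known. Named genes are the members, Cd24a, the 5 nearest profiles, up to 5 genes with the smallest p per list, markers, and those said to be named after their values were seen. Deviations from group means correlated at 0.377 to 0.732 between same-numbered arrays and at most 0.116 between others; the sample descriptions give same-numbered samples a common code, so the numbers pair the samples. The main fit nevertheless has no block and leaves this pairing out. It called 876 genes after scrambled siRNA and 840 after CD24 siRNA, against 2942 and 2831 with the block. A gene that did not pass in the main fit is therefore not shown to be unchanged. The fit with the number as a block is an alternative. It is given beside many of the results where it changes a call or moves a count by over 1.5 times. Alternatives were the replicate block, each array left out, other filters, quantile normalization, median centring, the mean of probe sets, an intensity trend and 2 groups only. Promoter sequences are from RefSeq (GRCm38.p6), and all 3 members matched by symbol. The number of arrays limits the precision.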

Additional observations from a re-analysis of the deposited data

How the results depend on the processing

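The mean of probe sets could not move the estimates of the Nr4a genes, which have 1 probe set each. Nor could other filters, or leaving out an array of the group not compared. The rises of Nr4a1, Nr4a2 and Nr4a3 over vehicle passed under all 18 alternatives run for each, in both comparisons. After scrambled siRNA they ranged from 2.90 to 3.64, 1.22 to 1.62 and 3.21 to 3.56 log2 units (highest adjusted p 0.011, 0.0283 and 0.00194, in the fits of 2 groups only), and after CD24 siRNA from 2.64 to 3.37, 1.34 to 1.62 and 2.81 to 3.09 (highest adjusted p 0.0152, 0.0383 and 0.00248, without the array labelled CD24 siRNA replicate 3). No difference between the siRNAs passed in any of them (Nr4a1 -0.48 to -0.11, Nr4a3 -0.60 to -0.25). That of Nr4a2 is 0.00 and changed sign: -0.14 to 0.26 on leaving out 1 array, 0.03 with quantile normalization and 0.01 with the replicate block and the array labelled CD24 siRNA replicate 3 left out, a setting added after seeing the data, as were the list counts without 1 array. The measured excess of Nr4a3 over Nr4a2 after scrambled siRNA was 1.59 to 2.08 without 1 array. That of Nr4a3 over Nr4a1 was -0.35 to 0.35 after scrambled and -0.45 to 0.25 after CD24 siRNA.

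Counts of genes called over vehicle moved more. After scrambled siRNA, 876 genes became 2942 with the replicate block (1503 higher, 1439 lower), 389 with 2 groups only and 313 to 852 on leaving out 1 array. After CD24 siRNA, 840 became 2831 with the block, 461 with 2 groups only and 321 to 857 on leaving out 1 array. With the replicate block the lists had 10 calls among immediate early genes (5 without), 7 among CREB pathway regulators (3), 5 among Nr4a partners and coregulators (2), 12 among adipogenic regulators (6) and 2 among reported Nr4a targets (0). Here the cause was not tested. The block changed no call of the 3 Nr4a genes. Low signal limits Nr4a3 most, as its vehicle values lay below the filter level.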
